A study of Homo sapiens with 15 samples.

Results

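The regions described here were open in every library of both SETD2 rescue clones and in no library of the wild-type (WT) or knockout (KO) cells. Members were chosen on the ATAC-seq peak calls themselves: peaks overlapping by 1 bp or more across the 15 libraries were merged, regions called in 2 or more libraries were kept as consensus regions, and a member had a peak in all 6 rescue libraries and in none of the 3 WT and 6 KO libraries. Of 295008 consensus regions, 1022 met this rule, which is 0.346%. Because the rule used the presence of a peak in all 15 libraries, the contrast of rescue with WT and KO at these regions is a description and was not tested. The mirror pattern, called in the 6 KO libraries alone, held 2413 regions or 0.818% and serves below as a comparison.

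The cells were RPTEC, human renal proximal tubule epithelial cells immortalised with hTERT and grown with G418 to maintain that selection. WT was the parental line without a SETD2 deletion. KO1 and KO2 were each a single clone in which CRISPR/Cas9 with a guide in exon 3 had inactivated SETD2. Rescue1 and Rescue2 were each a single colony of knockout cells that had received full-length FLAG-tagged human SETD2 by lentivirus and blasticidin selection, so both also carried the knockout lesion and the earlier selection. The study's sample names give both rescue clones the prefix of KO2. Each of the 5 groups had 3 libraries of the same clone or line, so spreads and p-values below measure only differences between these libraries, which may be technical, and clonal differences cannot be told apart from the genotype. Peak lists held 197527 to 266011 peaks, with Rescue2 replicate 1 and KO2 replicate 3 (255339) the longest, and these lists hold no read totals. All 12 kidney epithelial markers examined, such as PAX8 and KRT18, had a promoter peak in all 15 libraries. Of 10 proximal tubule markers, 6 had one in all 15, and HNF4A and SLC22A6, defining genes of the mature tubule, had none. Among 4 blood genes, PTPRC and SPI1 had no promoter peak in any library.

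ATAC-seq marks DNA that a transposase can reach, mostly promoters and enhancers where transcription factors have displaced nucleosomes. SETD2 is the enzyme that places the trimethyl mark on lysine 36 of histone H3 along transcribed gene bodies, a mark linked to restraint of cryptic initiation, splicing and DNA repair, and it is often mutated in clear cell kidney cancer. Re-expressing the enzyme in knockout cells asks which chromatin features return to the WT state.

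The sequences below show the 2 motifs most often matched in the members, in 200 bp windows around region centres on the plus strand of hg38. Capitals mark matches to any of 29 searched motifs. In the first set these are AP-1 sites (TGANTCA, bound by FOS and JUN factors), the E-box CAGGTG, which reads CACCTG on the other strand and is recognised by ZEB and SNAI repressors and by TCF3 and TCF12, and in single cases NRF2 (TGACNNNGC) and TFAP2 (GCCNNNGGC) matches. The EIPR1 intronic repeat is shown because an AP-1 match and an E-box overlap there in each repeat unit. The EIPR1 downstream, ASMT and NEGR1 regions were strong, with mean percentiles of 85.3, 84.9 and 81.1 on the strength scale explained below, while the WWOX, NTN1 and repeat regions had 51.2, 34.6, 44.8 and 12.5 and did not meet the rule with shorter peak lists.
EIPR1 downstream region, chr2:3160851-3161050: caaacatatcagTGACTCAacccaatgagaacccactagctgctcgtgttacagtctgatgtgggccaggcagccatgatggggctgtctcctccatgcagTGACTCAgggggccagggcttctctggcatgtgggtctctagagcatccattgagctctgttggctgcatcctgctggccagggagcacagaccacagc
ASMT downstream region, chrX:1903463-1903662: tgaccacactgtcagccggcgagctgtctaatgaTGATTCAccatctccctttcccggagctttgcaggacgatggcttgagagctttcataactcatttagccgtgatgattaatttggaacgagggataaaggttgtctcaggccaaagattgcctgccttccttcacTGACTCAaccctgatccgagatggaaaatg
NEGR1 intronic region, chr1:71621925-71622124: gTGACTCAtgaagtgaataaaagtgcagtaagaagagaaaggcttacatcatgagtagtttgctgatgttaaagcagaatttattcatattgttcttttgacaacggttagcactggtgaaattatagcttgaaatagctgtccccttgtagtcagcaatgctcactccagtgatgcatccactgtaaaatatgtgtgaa
WWOX intronic region with AP-1, chr16:78434523-78434722: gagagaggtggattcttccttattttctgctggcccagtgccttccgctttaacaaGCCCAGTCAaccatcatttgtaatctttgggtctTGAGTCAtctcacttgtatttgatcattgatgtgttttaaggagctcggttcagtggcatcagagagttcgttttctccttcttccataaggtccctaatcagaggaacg
NTN1 intronic region, first, chr17:9028241-9028440: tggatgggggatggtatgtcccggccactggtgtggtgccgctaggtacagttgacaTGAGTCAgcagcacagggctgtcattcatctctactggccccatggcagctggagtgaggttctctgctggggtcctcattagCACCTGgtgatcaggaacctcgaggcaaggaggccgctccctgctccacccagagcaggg
NTN1 intronic region, second, chr17:9074263-9074462: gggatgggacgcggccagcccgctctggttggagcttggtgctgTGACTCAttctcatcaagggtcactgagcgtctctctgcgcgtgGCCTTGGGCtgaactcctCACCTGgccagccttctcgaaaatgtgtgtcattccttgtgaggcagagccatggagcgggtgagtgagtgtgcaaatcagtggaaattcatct
EIPR1 intronic repeat, chr2:3218443-3218642: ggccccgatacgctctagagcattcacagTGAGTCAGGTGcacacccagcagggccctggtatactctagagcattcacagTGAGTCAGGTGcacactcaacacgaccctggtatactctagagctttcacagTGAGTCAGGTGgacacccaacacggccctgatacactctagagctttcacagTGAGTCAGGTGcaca

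The next set shows 2 of the strongest members that lacked both motifs. The capitals mark a FOX match (TGTTTAC) in the WWOX region and a C/EBP match (TTGCNNAA) in the TTYH1 promoter.
WWOX intronic region with FOX, chr16:78257396-78257595: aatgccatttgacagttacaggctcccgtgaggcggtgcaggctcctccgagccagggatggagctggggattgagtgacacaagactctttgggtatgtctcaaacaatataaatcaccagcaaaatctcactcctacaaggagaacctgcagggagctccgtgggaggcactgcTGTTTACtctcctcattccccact
TTYH1 promoter, chr19:54418149-54418348: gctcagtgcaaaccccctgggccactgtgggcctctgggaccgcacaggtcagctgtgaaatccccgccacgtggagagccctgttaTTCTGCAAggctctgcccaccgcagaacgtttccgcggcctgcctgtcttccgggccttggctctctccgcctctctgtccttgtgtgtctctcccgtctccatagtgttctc

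The members were regions of modest strength. Strength is given as a percentile, the rank of a peak's fold enrichment over the local background within its own library from 0 (weakest) to 100. Member width had a median of 231 bp, from 110 to 991 bp. This was near the median of 244 bp for all consensus regions and lay between WT-only (178 bp) and KO-only regions (257 bp). The other regions shared by the 6 rescue libraries had 404 bp, but a merged region can widen with each library that has a peak there. The median percentile of the members was 34.7, 31.2 and 30.1 in the Rescue1 libraries and 42, 37.1 and 30.5 in the Rescue2 libraries. The other regions open in all 6 rescue libraries had medians of 64.4 to 71.7. Averaged over the 6 libraries, members stood at 34.3 ± 4.66 (SD, n = 6) and the other regions at 66.9 ± 2.79 (SD, n = 6), and the ranges did not overlap. The other regions include the 104967 with a peak in all 15 libraries, whereas members have none in the 9 WT and KO libraries. A rule that asks for missing peaks favours weak regions, so this contrast is in part set by the rule. The median fold enrichment was 5.38 ± 0.202 (SD, n = 6) at members and 8.91 ± 0.351 (SD, n = 6) at the others. Only 51 members (4.99%) lay above the 50th percentile in all 6 libraries, while 455 (44.5%) lay below it in all 6.

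**Figure D1:**
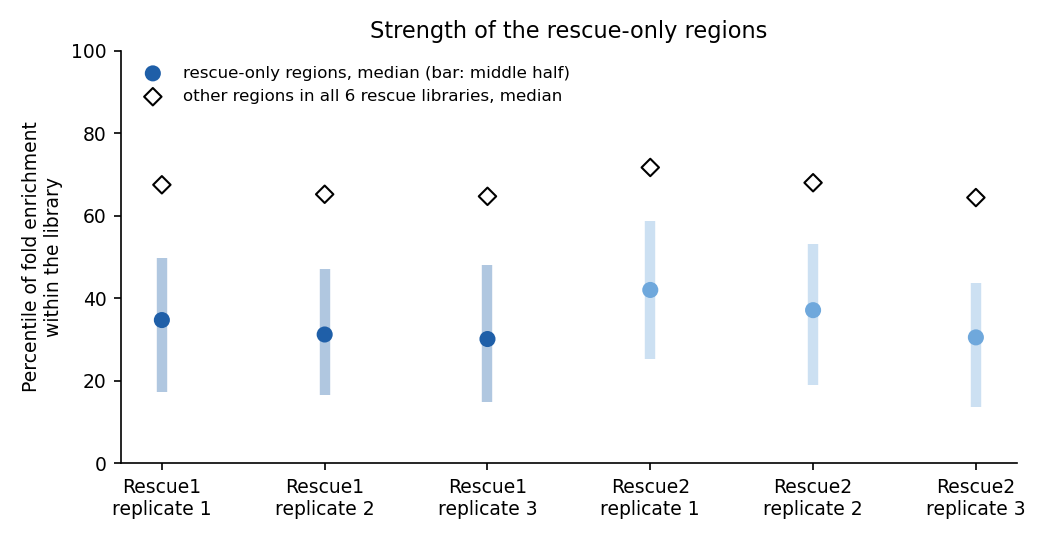
Percentile of fold enrichment within the library (y axis) in the 6 rescue libraries (x axis). Filled points are the medians of the 1022 rescue-only regions with a bar from the lower to the upper quartile, and open diamonds are the medians of the other regions shared by these 6 libraries. Every member median lies between 30.1 and 42, below every diamond.

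The edge of the rule was crowded. Just outside it, 1246 regions had a peak in all 6 rescue libraries and in exactly 1 other library, with a median percentile of 36 against 34.8 inside. In 426 of these (34.2%) the other library was KO2 replicate 3, the longest KO list, against 40 to 139 for each of the other 5 KO libraries and up to 182 for each WT library. A further 1201 regions had a peak in 5 rescue libraries and in no other, with a median percentile of 26.6. The missing library was Rescue2 replicate 3 in 369 of them and Rescue2 replicate 1, the longest list, in 59. Of the members, 215 (21.0%) lay within 500 bp of a WT or KO peak and 276 (27.0%) lay more than 5 kb from any. When each list was cut to its 150000 most significant peaks, 837 regions met the rule, but only 121 (11.8%) of the original members were among them. At a −log10 q of at least 5 the rule found 1018 regions, which included 304 (29.7%) of the members. The 12 strongest members met the rule under both shorter lists, as did 21 of the 45 members nearest the 8 genes with the most members. Membership of most regions thus changed with the length of the peak lists. This included some stronger ones, such as a region near RAB28 with a mean percentile of 57.

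The strongest member lay in an intron of ERICH1 at chr8:721392-721791. Its percentiles were 94.7, 89.5 and 92.2 in Rescue1 and 98.2, 97.5 and 92.0 in Rescue2, and its fold enrichment averaged 15.9. All 6 libraries thus placed it among their most enriched peaks. The second was intronic in TRAPPC9, a subunit of the TRAPP vesicle-tethering complex, at chr8:139991235-139991536, with percentiles of 92.2, 91.4 and 85.8 in Rescue1 and 94.8, 95.5 and 93.3 in Rescue2. The fourth, also high in every library, was intergenic, downstream of the 3′ end of EIPR1 and 33232 bp from its nearest annotated transcript start. EIPR1 is a protein of endosomal recycling, and the region, at chr2:3160742-3161159, had values from 67.8 to 94.0. The fifth lay 266830 bp from a transcript start of ASMT at chrX:1903228-1903898, with values from 74.5 to 92.3. ASMT, the last enzyme of melatonin synthesis, lies in the pseudoautosomal region shared by X and Y, where reads from the 2 chromosomes cannot be told apart.

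The next 7 included the promoter of TTYH1, which encodes a tweety-family membrane protein, at chr19:54418053-54418444, covering an annotated start. It had percentiles of 91.5, 88.8 and 78.6 in Rescue1 and 84.4, 80.6 and 80.0 in Rescue2. Both clones were high there, with overlapping values. A region at chr19:33477813-33478251 overlapped an exon of PEPD, the dipeptidase that frees proline (66.0 to 90.3). Another at chr19:56294531-56295032 lay 796 bp from a start of EDDM13 and inside ZSCAN5A (75.1 to 88.4). Intronic regions of YIPF7 (75.6 to 90.9) and of NEGR1, a neuronal adhesion molecule (76.8 to 87.3), followed. The last 2 lay in introns of WWOX, an oxidoreductase with WW domains that spans a common fragile site. At chr16:78257313-78257678 Rescue1 read 65.6, 65.2 and 70.1 and Rescue2 96.7, 93.4 and 89.5, whereas at chr16:78310839-78311644 both clones lay between 74.6 and 83.7. The values of the clones thus overlapped at the latter region but not at the former. Rescue2 lay wholly above Rescue1 at 13.9% of all regions with a peak in all 6 rescue libraries. Of the 12 strongest members, 10 lay inside a protein-coding gene, and 2 of those were at promoters.

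The weakest members were a region over a start of TAPBP, the tapasin chaperone of MHC class I, at chr6:33313296-33313534, one 3877 bp from a start of MELTF and one 5084 bp from a start of ATIC. Their mean percentiles were 0.757, 0.513 and 0.432. Mean fold enrichment there was 2.78, 2.70 and 2.59.

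Over all members the strength of the clones overlapped, in a design too small to pass a threshold of 0.05. The library medians averaged 32.0 ± 2.37 in Rescue1 and 36.5 ± 5.77 in Rescue2 (SD, n = 3 each), a difference of -4.53 percentile points (exact two-sided permutation test, p = 0.3, smallest possible p = 0.1). Without Rescue2 replicate 1 the difference was -0.0287. Ranked against the regions open in all 15 libraries instead, Rescue1 was below Rescue2 by 0.58 percentile points (difference -0.58, exact permutation p = 0.1) and the clones did not overlap. All 3 Rescue2 libraries were above all 3 Rescue1 libraries at 188 members (18.4%), and the reverse held at 84 (8.22%). Over all 145341 regions with a peak in all 6 rescue libraries the corresponding shares were 13.9% and 6.58%.

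Each clone was also examined at regions chosen without it. The 19666 regions with a peak in all 3 Rescue1 libraries and in no WT library were read in Rescue2 and KO, which the choice had not used. A peak was present at 88.0% of them in the highest and 73.1% in the lowest Rescue2 library (81.0% ± 7.5, SD, n = 3) and at 52.4% to 76.0% in the KO libraries (62.0% ± 8.89, SD, n = 6). The ranges overlapped, and the difference of 19.0 points had an exact two-sided permutation p of 0.0476, or 0.0952 after adjustment over the 2 tests. The 22933 regions chosen on Rescue2 had a peak in 68.6% to 72.8% in Rescue1 (70.9% ± 2.11, SD, n = 3) and in 48.7% to 74.4% in KO (59.5% ± 9.86, SD, n = 6), a difference of 11.4 points (exact permutation p = 0.0952, adjusted 0.0952). KO2, which shares the prefix of the rescue clones, had higher shares than KO1. They were 69.2% ± 5.94 against 54.8% ± 2.65 (SD, n = 3 each) in the former set and 67.7% ± 5.91 against 51.3% ± 2.76 in the latter. Over all consensus regions the mean shares were 68.6% in KO2, 63% in KO1, 70.2% in Rescue2 and 64.3% in Rescue1. KO2 thus stood near its own share over all regions, and KO1 below its own. Neither test passed the threshold of 0.05 after adjustment with the full lists. With 150000 peaks per library the differences were 16.7 points in Rescue2 and 13.9 in Rescue1 (exact permutation p = 0.0238 each). At a −log10 q of at least 5 they were 19.4 and 14.5 points (exact permutation p = 0.0476 each). With either shorter list both were below 0.05, also after adjustment. These tests pool 2 KO clones that differed. Against KO2 alone, with the full lists, the differences were 11.8 and 3.21 points (exact permutation p = 0.2 and 0.4, smallest possible 0.1). All members belong to both sets, so the values are not independent of the rule. Of the regions open in all 3 libraries of a clone and in no WT or KO library, members were 37.2% of the 2745 for Rescue1 and 27.6% of the 3705 for Rescue2.

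The members were mostly distal. A promoter, defined as the 1000 bp either side of a protein-coding transcription start in GENCODE release 44, held 70 members (6.85%) against 13.1% of all consensus regions, 4.64% of KO-only regions and 11.7% of regions open in all WT and rescue and no KO libraries. A further 46 members (4.50%) overlapped exons, 462 (45.2%) lay in introns and 444 (43.4%) were intergenic. Gene bodies held 571 members (55.9%), close to the 55.2% of all regions and above the 39.6% of KO-only regions. The median distance to the nearest annotated transcript start was 16.2 kb for members, 20.4 kb for all regions and 88.4 kb for KO-only regions. The 508 members inside genes and away from starts lay at a median of 52.6% of the gene's length from its start, against 49.0% for all regions. Their genes had a median length of 158 kb, against 174 kb for all regions and 320 kb for KO-only regions. Another 47 members lay within 1000 bp of a start of a noncoding gene or pseudogene, 30 of them lncRNA starts.

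After TTYH1 and EDDM13, the strongest promoter members had lower values. The ATP9B region at chr18:79086234-79086415, 892 bp from a start of this putative lipid flippase, had percentiles of 69.2, 65.2 and 64.1 in Rescue1 and 47.2, 48.5 and 58.4 in Rescue2, with Rescue1 above throughout. EVPL, encoding the desmosomal protein envoplakin, had a member 9 bp from a start at chr17:76011963-76012282 (45.3 to 63.5). At ADD1, which encodes the membrane-skeleton protein adducin, a region 60 bp from a start at chr4:2875574-2875836 read 17.3, 25.6 and 34.2 in Rescue1 and 84.9, 79.0 and 62.3 in Rescue2, again without overlap. Regions at RPGRIP1, a ciliary protein of photoreceptors (25.6 to 78.3), EMP2, an epithelial membrane protein (16.6 to 60.8), and the polarity gene PARD6G (17.3 to 71.9) completed the 8. Of these 8, 3 met the rule with lists of 150000 peaks, namely TTYH1, EDDM13 and EVPL.

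Members were unevenly placed along the genome. They made up 3.46 of every 1000 consensus regions over the genome but 8.53 on chromosome 19, 6.56 on chromosome 22, 5.79 on chromosome 20, 5.78 on chromosome 16 and 5.40 on chromosome 17. The lowest values were 1.75 on chromosome 21, 1.94 on chromosome 13 and 2.11 on chromosome 8. KO-only regions had their lowest rate on chromosome 19, 0.867 per 1000 against 8.18 over the genome. Members were also nearer to chromosome ends: 74 (7.24%) lay within 2 Mb of an end against 3.39% of all regions and 1.62% of KO-only regions, while regions open in WT and rescue but no KO library reached 10.1%. With lists of 150000 peaks the share was 8.72% of members against 3.4% of all regions. GC content had a median of 48.5% in 200 bp windows at members, 47.5% at all regions and 44% at KO-only regions, and its part in the placement was not tested.

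**Figure D2:**
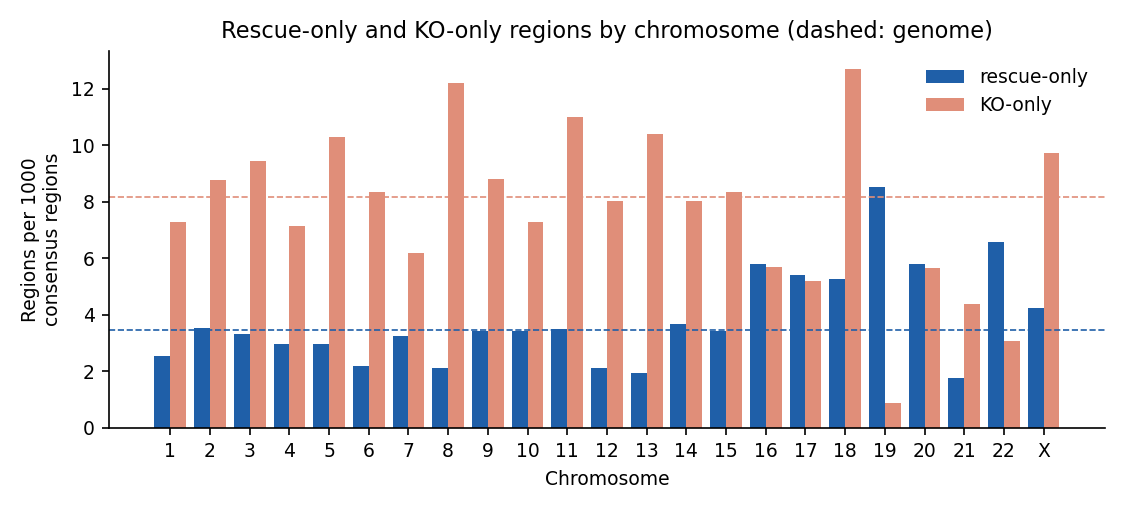
Rescue-only (blue) and KO-only (orange) regions per 1000 consensus regions (y axis) on each autosome and X (x axis), with dashed lines at the genome-wide values of 3.46 and 8.18. Chromosome 19 has the highest rescue-only and the lowest KO-only value.

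Members lay close together less often than the regions of other patterns did. Of the 1022, 153 (15%) had another member within 50 kb and 655 (64.1%) within 1 Mb, against 29.7% and 69.3% of the 927 regions open in all WT and rescue but no KO libraries, and 37.7% and 85.4% of KO-only regions. These shares are descriptions, and a larger set is closer spaced by its size alone. By nearest protein-coding start they were assigned to 892 genes, 811 of which had a single member. Among the few genes with several members, WWOX had the most, 9 of its 41 consensus regions, all within the gene between chr16:78150310 and chr16:78460751. Their mean percentiles ran from 26.6 to 80.1, and 4 of the 9 met the rule under both shorter lists. At the 32 other regions of WWOX, which the rule did not choose, the rescue libraries had 12 to 28 peaks, the WT libraries 6 to 10 and the KO libraries 4 to 7. At these 32 regions, too, each rescue library had more peaks than any WT or KO library. WWOX was picked for its members, however, and regions that narrowly missed the rule can be among the 32. This contrast and those at the genes and stretches below are therefore descriptions without a test.

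Around ASMT 7 of 33 regions were members, all intergenic and 54.7 to 278 kb from a start. Their 26 neighbours had 14 to 22 peaks per rescue library, 12 to 13 in WT and 3 to 7 in KO. EIPR1 had 5 members among 41 regions, and the 36 others had 21 to 29 peaks in rescue, 21 to 24 in WT and 3 to 5 in KO. Here rescue overlapped WT, and KO stood apart. NDUFA10, a subunit of mitochondrial complex I, had 4 members among 21 regions, with 12 to 15, 9 to 11 and 2 to 5 peaks at the 17 others in rescue, WT and KO. TRAPPC9 had 5 of 96, and its 91 others had 60 to 82, 51 to 55 and 28 to 40 peaks in the same order. In these 4 genes the KO libraries had the fewest peaks.

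The order differed at the remaining 3 genes. RAB28, a small GTPase, had 6 members among 61 regions, 71.4 to 230 kb from its nearest annotated transcript start, and the 55 others had 21 to 38 peaks in rescue, 10 to 13 in WT and 18 to 35 in KO. NEGR1 had 4 of 88, with 43 to 63, 24 to 25 and 28 to 51 peaks at the 84 others. NTN1, encoding the axon guidance ligand netrin-1, had 5 of 35, with 18 to 27, 14 and 9 to 21 peaks at the 30 others. At RAB28 and NEGR1 WT had the fewest peaks, and at all 3 genes the rescue and KO ranges overlapped.

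**Figure D3:**
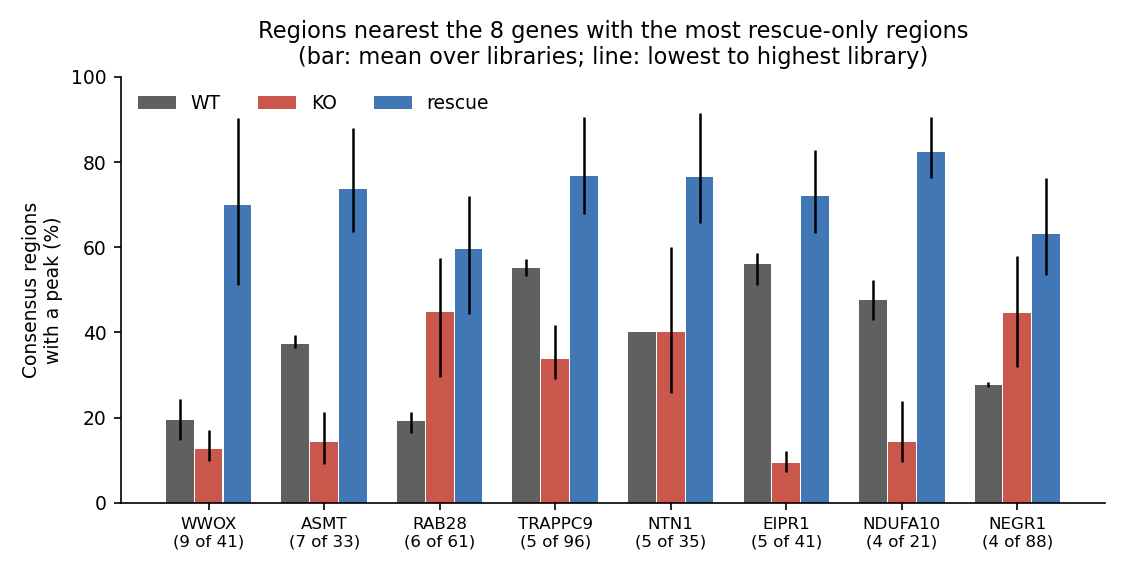
Percent of the consensus regions nearest each gene that had a peak (y axis) for the 8 genes with the most rescue-only regions (x axis, members of all regions in brackets). Bars are means over 3 WT, 6 KO and 6 rescue libraries and lines run from the lowest to the highest library. Members are included, so each rescue bar exceeds the others in part by the rule. WWOX, ASMT, EIPR1, NDUFA10 and TRAPPC9 have their lowest bars in KO, RAB28 and NEGR1 in WT.

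By fixed 1 Mb stretches, the WWOX stretch of chromosome 16 (78000001 to 79000000) and the stretch of chromosome 18 from 79000001 to 80000000 each held 9 members. In the latter, members lay nearest CTDP1, a phosphatase of the RNA polymerase II tail, NFATC1, a calcineurin-dependent transcription factor, ATP9B and the potassium channel gene KCNG2. At its 102 regions that were not members, the rescue libraries had 70 to 85 peaks, the WT libraries 60 to 71 and the KO libraries 30 to 37, so rescue overlapped WT and KO stood apart. The next stretches were on X (8 members), chromosome 4 (6, all nearest RAB28) and chromosome 17 (6, at NTN1 and STX8).

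The surroundings of the whole set showed a like order. Within 50 kb of a member lay 13766 other consensus regions. Relative to its own share over all regions, each WT library had a peak in 3.04 to 3.27 percentage points more of them, each KO library differed by -3.91 to -2.63 points, and each rescue library had 4.99 to 6.38 points more. The group means were 3.18, -3.36 and 5.74 points, and the 3 ranges did not overlap. These neighbours were found through the members, so the contrast is a description without a test. The rescue minus KO difference of 9.10 points was 9.21 without the 2 longest lists, and 9.26 and 8.24 with the 2 shorter list definitions. Around the 4709 regions with a peak in at least 5 of 6 rescue and at most 1 of 9 other libraries it was 4.91 points, and there WT (4.67) was near rescue (4.83). A like gain in rescue was seen around regions open in WT and rescue but no KO libraries. There the rescue libraries read 4.87 to 6.34 points, the WT libraries 5.44 to 5.9 and the KO libraries -7.24 to -5.38. Around KO-only regions the KO libraries were high instead, with 2.84 to 5.61 points, and the rescue libraries read -10.5 to -9.16.

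**Figure D4:**
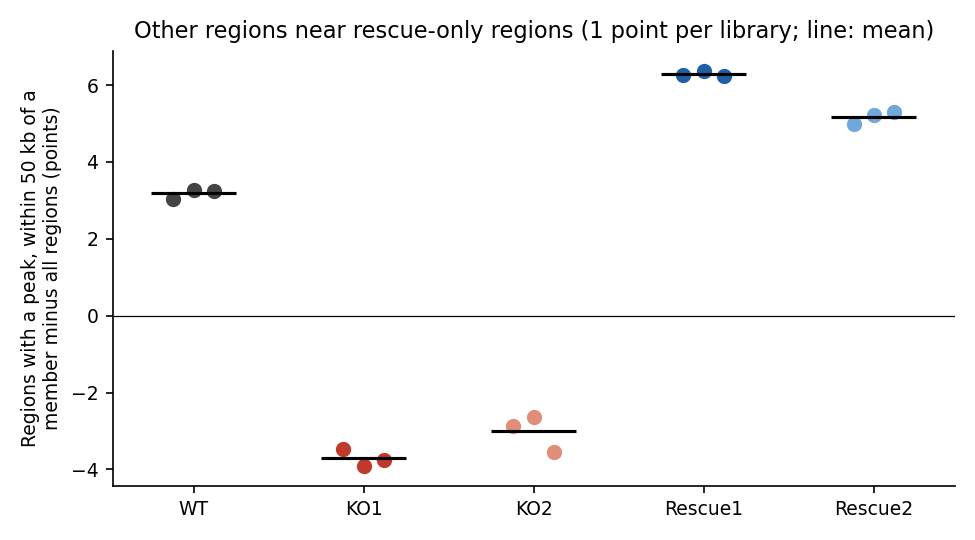
Percent of the 13766 other regions within 50 kb of a member that had a peak, minus the percent of all consensus regions (y axis, percentage points), for each of the 15 libraries (points) by group (x axis). Lines are group means. All KO points lie below 0, WT points near 3.18 and rescue points between 4.99 and 6.38.

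Of the 15 gene lists examined, which were chosen with earlier results of these data known, 12 had at least 1 member by nearest start. Together the listed genes held 60 members among 22696 regions. The axon guidance and neuronal adhesion list had 26 members at 16 genes, 3.76 per 1000 of its regions against 3.46 over the genome, and NTN1, NEGR1 and CDH4 held 13 of them. The interferon list had 3 members, or 7.03 per 1000. One of these lay 7152 bp from a start of GBP1, an interferon-induced GTPase, with a mean percentile of 50.4. Among writers, readers and erasers of H3K36 methylation, ZMYND11, a reader of the mark, had an intronic member (mean 53) and KDM4B, a demethylase, another (mean 11.4), or 4.05 per 1000. Mesenchymal genes and EMT factors had 3 members, 2 at the adhesion receptor CD44 (means 44 and 6.16) and 1 in an intron of the repressor ZEB1 (mean 29.7), or 2.35 per 1000.

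The remaining lists had rates nominally below the genome-wide 3.46 per 1000. With at most 4 members in each, these rates cannot be told apart from it. The same holds for the interferon, H3K36 and mesenchymal lists above, with 2 or 3 members each. WNT genes had 4 members, at WNT7A, LRP5, FZD8 and WNT2B (2.74 per 1000). Collagen, laminin and integrin genes had 4, at ITGA6, LAMC1, LAMA3 and ITGB1 (2.06), and kidney tubule genes 3, at IRX3, SLC12A3 and CDH6 (2.23). TGF-β and SMAD genes had 3, at ACVR2B, FST and SMAD3 (1.98), and growth factor genes 3, at NRG2, MET and AREG (1.54). Cytokine genes had 2, at TNFSF10 and CSF2 (2.99). The AP-1, C/EBP, RUNX and TEAD list had 3, at the factors TEAD4 and CEBPB and at CCN2, which is not such a factor (2.47). The SOX, FOX, POU and KLF factors had 4, at SOX9, SOX2 and FOXL1 (1.68). Members were assigned to the nearest protein-coding start, however far away. The 2 SOX9 members lay 825230 and 221363 bp from a start. Those of FZD8, CDH6, SOX2, SMAD3 and CCN2 lay 531177, 273762, 198429, 175646 and 111986 bp away. Others, such as that of FOXL1 (637 bp), were nearer. Epithelial junction and keratin genes, nephron progenitor factors and HOX genes had 0 members among 478, 383 and 260 regions. SETD2 itself had 22 consensus regions and no member, nor any region open in 5 or 6 rescue and at most 1 other library, although the transgene carries its coding sequence.

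The sequence of the members set them between other patterns. The E-box CAGGTG was present in 259 members (25.3%), against 16.2% of all consensus windows of the same length, 16.5% of the other regions open in all 6 rescue libraries and 8.00% of KO-only regions. Of the 6 patterns plotted its share was highest, 33.9%, where WT and rescue but no KO libraries had peaks, and low, 9.74%, where KO and rescue but no WT libraries had them. The 4 other E-box forms examined after seeing this value were near the background: CAGCTG 15.9% of members and 15.1% of all regions, CACGTG 3.42% and 3.16%, CATATG 3.72% and 3.15%, and CAGATG 15.9% and 16.5%. The E-box share was like that of members in the regions just outside the rule, 24.5% with 5 rescue and no other libraries and 23.6% with 6 rescue and 1 other. By strength it ran from 22.3% in the strongest of 4 equal groups of members to 27.0% in the weakest, and the AP-1 share from 41% to 31.6% in the same order, a difference in trend that was not tested. Among the 716 regions that met the rule with lists of 150000 peaks and were not members, 22.3% had the E-box.

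AP-1 sites were present in 380 members (37.2%) against 27.5% of all regions. Here the members were close to regions open in KO and rescue (37.8%) and in WT and rescue (35.7%), whereas WT-only regions had 11.5%. Both motifs occurred together in 9.88% of members, against 4.59% of all regions and 1.91% of KO-only regions, and they overlapped in 17 (1.66%), as in the EIPR1 repeat printed above. Each motif alone was also more frequent in members than in all regions, and pairing beyond these separate shares was not tested. Of 135 members (13.2%) with an NRF2 match, against 11% of all regions, 20 had it overlapping an AP-1 site. C/EBP matches were fewer in members, 7.05%, than in all regions, 10.4%, and in KO-only regions, 18.6%. Weighting the comparison regions to the GC content of the members gave 17.2% for the E-box, 27.9% for AP-1 and 10.2% for C/EBP.

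**Figure D5:**
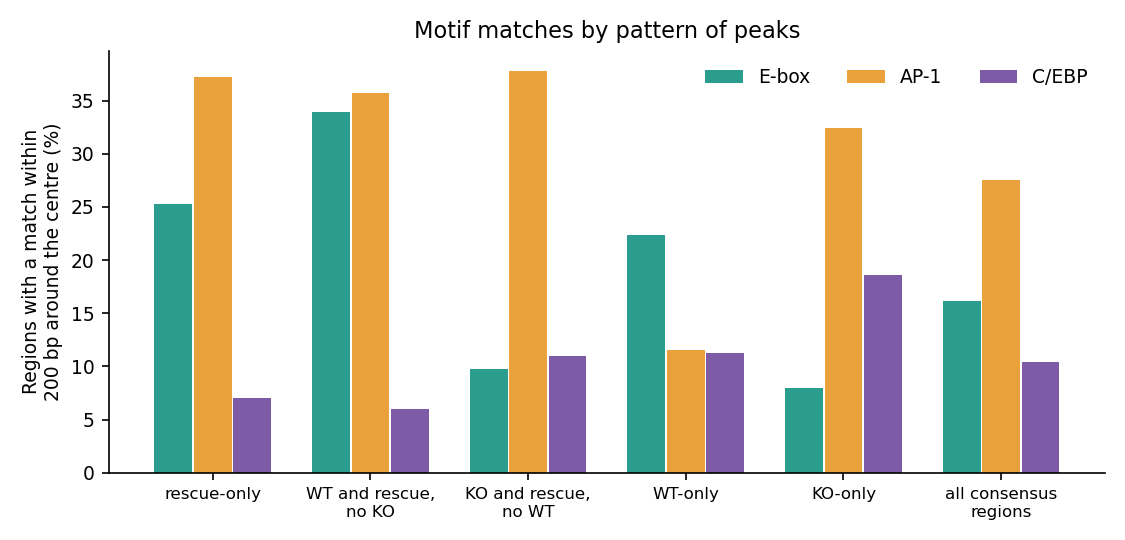
Percent of regions with a match to the E-box CAGGTG, AP-1 or C/EBP motif within 200 bp around the centre (y axis) by pattern of peaks (x axis). Rescue-only regions have the E-box in 25.3% and AP-1 in 37.2%, whereas KO-only regions have 8.00% and 32.4% and WT-only regions 22.4% and 11.5%.

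Of the other listed motifs with at least 20 members, FOX was found in 4.50% of members and 3.51% of all regions, RUNX (TGTGGTT) in 8.22% and 8.02%, TEAD (GGAATGT) in 4.40% and 4.65%, and SOX (ACAATGG) in 3.52% and 2.65%. The homeobox core TAATTA was found in 2.45% and 3.8%, the AGATAA site of GATA-family factors in 10.3% and 8.90%, TFAP2 in 6.36% and 7.63%, and the interferon response element in 1.96% and 3.09%. Few members held the CTCF (0.881% against 2.79%), KLF/SP (CCCCGCCCC, 0.685% against 1.58%), POU octamer (ATGCAAAT, 0.587% against 1.39%), NF-kB (GGGANTTCC, 0.783% against 1.84%), TCF/LEF (CTTTGATG, 0.783% against 0.766%), HNF4 (CAAAGTCCA, 0.294% against 0.276%), ETS (CCGGAAGT, 0.196% against 0.398%), MEF2 (0.196% against 0.0773%) or SMAD (GTCTAGAC, 0.0978% against 0.151%) motif. The HNF1, p53, NFI, glucocorticoid receptor, PAX, NRF1, YY1 and GRHL (AACCGGTT) motifs had 0 matches in 1022 members, which allows a share of up to 0.294%, and were found in 0.0183% to 0.358% of all regions. CpG-rich sequence was scarce: 1.66% of members had 10 or more CpG in 200 bp against 8.52% of all regions. Tandem repeats, taken as 1 kb windows in which at least 25% of 12 bp words recurred, were found at 12 members (1.17%) and at 0.948% of all regions.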

How the data were processed

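ATAC-seq peak lists of 15 libraries (WT, KO1, KO2, Rescue1 and Rescue2, 3 each) were analysed. The authors aligned reads to hg38 with BWA (0.7.17 in the submitters' processing notes, which also name DiffBind 2.14.0) and called peaks per library with MACS2 2.2.7.1. The deposited narrowPeak lists give for each peak an integer display score, the fold enrichment (a ratio of pileup to local background), a −log10 p, a −log10 q and a summit offset. All lists began near a −log10 q of 1.30. The lists hold no read totals, the mapped-read totals of the study were not used here, and a list can lengthen with depth.

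Merging used chromosomes 1 to 22, X and Y, members were found as stated, and each region took its best peak per library. Genes came from GENCODE release 44, sequences from the hg38 reference. Calculations used Python 3.11.15, numpy 2.4.6, pandas 2.3.3 and scipy 1.17.1, and were checked on simulated lists. Exact permutation tests compared library values, with Benjamini-Hochberg adjustment over the held-out tests. Members, gene lists, markers and motifs were chosen with earlier results of these data known. Named were the 12 strongest members, the 8 strongest at promoters, the 3 weakest, the 8 genes and 5 stretches of 1 Mb with the most members, up to 4 genes per list, and SETD2. Some items that met this rule are not reported here. Alternatives changed thresholds, list length, merging, the rule, clones, windows and libraries.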

Additional observations from a re-analysis of the deposited data

Results flagged for a closer look

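In 9 sets of values over 6 libraries, 1 set had a library that stood apart. Chance alone gives about 1 in 20 such sets. Of the regions with a peak in all 6 rescue libraries and in a single KO library, 426 had it in KO2 replicate 3, against 40 to 139 in each other KO library. That library had the longest KO list, and without it the rule gave 1450 members.

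Outside chromosomes 1 to 22, X and Y, peaks lay on 75 other contigs and formed 926 regions with a peak in 2 or more libraries. Of these, 1 had a peak in all 6 rescue libraries and in no WT or KO library. These contigs were not used in any comparison.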

How the results depend on the processing

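The number of members kept within 1.5 times of 1022 in 23 of 26 alternatives, but its members did not always stay the same, as given above for the shorter lists. It was 4709 with a peak in at least 5 of 6 rescue and at most 1 of 9 other libraries, 2745 with Rescue1 alone and 3705 with Rescue2 alone, and 1062 to 1450 without any single library. Requiring peaks to cover 50% of the region gave 1441 regions, with 436 of the members among them.

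The promoter share moved to 8.60% under the relaxed rule, 11.4% with all annotated genes (17.8% of all regions), 4.01% with a 500 bp window (10.1%) and 14.9% with a 2500 bp window (18.8%), below all regions each time. The gene body share was 69.7% with all annotated genes (69.9% of all regions). Without single libraries these shares ran from 6.61% to 8.11% and from 54.8% to 56.5%. The E-box share relative to all regions, 1.57 times, was 1.75 times in 100 bp windows and 1.41 to 1.58 times otherwise. Alternatives on shorter lists for the E-box, chromosome ends and neighbouring regions were added after seeing the data. The share within 2 Mb of a chromosome end was 5.63% under the relaxed rule.

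The held-out difference in Rescue2 was 26.1 points against KO1 alone (exact permutation p = 0.1, the smallest possible) and 11.8 against KO2 alone (p = 0.2). It was 19.0 points with the replicate block (exact sign-flip p = 0.25, the smallest possible), and ran from 15.5 points (without Rescue2 replicate 1) to 22.9 without single libraries, with p from 0.0357 to 0.143. In Rescue1 the difference was 13.9 points with 150000 peaks per library and 14.5 at a −log10 q of at least 5, with exact permutation p of 0.0238 and 0.0476, and 3.21 points against KO2 alone (p = 0.4). It ran from 9.20 to 14.3 points without single libraries, and passed the threshold without KO2 replicate 3 (14.3 points, exact permutation p = 0.0357). With the replicate block it was 11.4 points (exact p = 0.25). The difference in strength between the clones was -0.58 when ranked among regions open in all 15 libraries, -4.53 with the replicate block (exact p = 0.25) and -6.34 to -0.0287 without single libraries. The numbers do not pair the samples: deviations of same-numbered Rescue1 and Rescue2 libraries from their group means correlated at -0.0209 to 0.0598 across regions open in all 15 libraries.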
